A study of Mus musculus with 6 samples.

Results

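The kinesin superfamily was examined in Neuro2a cells, a mouse neuroblastoma line, grown with or without D-serine, an amino acid known in the brain as a ligand of the NMDA receptor. All rows of the count table whose symbol is Kif or Kifc, a number and at most one letter from a to c were taken, which gave 41 of the 24391 genes. Of these, 11 motors of cell division (Kif2c, Kif4, Kif11, Kif14, Kif15, Kif18a, Kif20a, Kif20b, Kif22, Kif23 and Kifc1) were set against the other 30. Both groups of cultures were moved to D-MEM(-SG) with fetal bovine serum, as the labels write it. The 3 control cultures received vehicle and the 3 treated cultures received 5 mM D-serine, and poly(A) RNA was taken from both after 18 h. The labels do not say that the 3 samples of a group were grown separately, so p-values measure only the spread between these samples.

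Kinesins are motor proteins that turn ATP hydrolysis into movement along, or disassembly of, microtubules. Mitotic kinesins build the spindle, move chromosomes and complete cytokinesis, and their genes are typically transcribed late in the cell cycle. Transport kinesins carry vesicles, mitochondria and protein complexes towards microtubule plus ends, and neurons depend on them to supply the axon.

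Library totals ran from 32518483 to 37751439 counts in control and from 36486418 to 40024265 counts with D-serine, so their ranges overlapped. Of the 41 kinesins, 33 were expressed highly enough to be tested, all 11 mitotic motors among them. Levels are given in CPM, counts scaled to library size by the trimmed mean of M values, and, where genes are compared with each other, in CPM per kilobase of exon. The sympathoadrenal factor Hand2 (239 to 261 CPM) was present in every library. The 5 fibroblast markers summed to 5.70 to 6.09 CPM in control and 4.61 to 6.90 CPM under D-serine, and Lum was at 0. The glial list summed to at most 3.07 CPM, that of blood cells to at most 1.49 CPM and that of ciliated epithelium to at most 2.71 CPM. The 5 markers of the neuronal cytoskeleton summed to 689 to 747 CPM in control and 789 to 862 CPM with D-serine, without overlap, while the neurofilament gene Nefl was at 0 in 5 of 6 libraries. Nefl and the related Nefm were too low to be tested. Of the others, only Tubb3, a neuronal tubulin, passed, and it rose from 467, 488 and 514 CPM to 624, 552 and 573 CPM (log2 fold change 0.25, edgeR adjusted p = 0.0148). Its call was lost without control replicate 1 (edgeR adjusted p = 0.0807) or control replicate 2 (edgeR adjusted p = 0.0719). It was also lost with replicate number as a block in the fit (edgeR adjusted p = 0.0524). The part of these markers in the kinesin values was not tested.

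Per length, the most abundant kinesin transcripts were Kif22, Kif5b, Kif5c, Kif11 and Kif2a. Kif22, a chromokinesin that binds chromosome arms, stood at 72.2 ± 1.95 CPM per kilobase in control (SD, n = 3 for this and the following control levels). Kif5b, the ubiquitous heavy chain of conventional kinesin, stood at 71.5 ± 0.84, and its neuronal relative Kif5c at 68.6 ± 0.64. Kif11, the motor that pushes spindle poles apart, followed at 68.0 ± 1.31. The spreads of Kif22 and Kif5b overlapped in control, as did those of Kif5c and Kif11. With D-serine, Kif5b (68.5 ± 3.84) and Kif5c (67.8 ± 4.17) overlapped too (SD, n = 3 each). The SD leaves out errors that differ between genes, so the order of Kif22, Kif5b, Kif5c and Kif11 is not resolved. Kif2a, a microtubule depolymerase, was lower at 59.4 ± 1.25. After a gap came Kifc1 (35.6 ± 0.37) and Kif18b (31.3 ± 0.80), 2 further genes of the spindle. Mitotic motors made up 44.9% ± 0.31 of the summed kinesin level per length in control and 44.8% ± 0.92 with D-serine (SD, n = 3 each). The 13 transport kinesins made up 33.0% ± 0.10 and 33.0% ± 1.26, and the other 17 kinesins, the spindle gene Kif18b among them, the remainder.

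**Figure D1:**
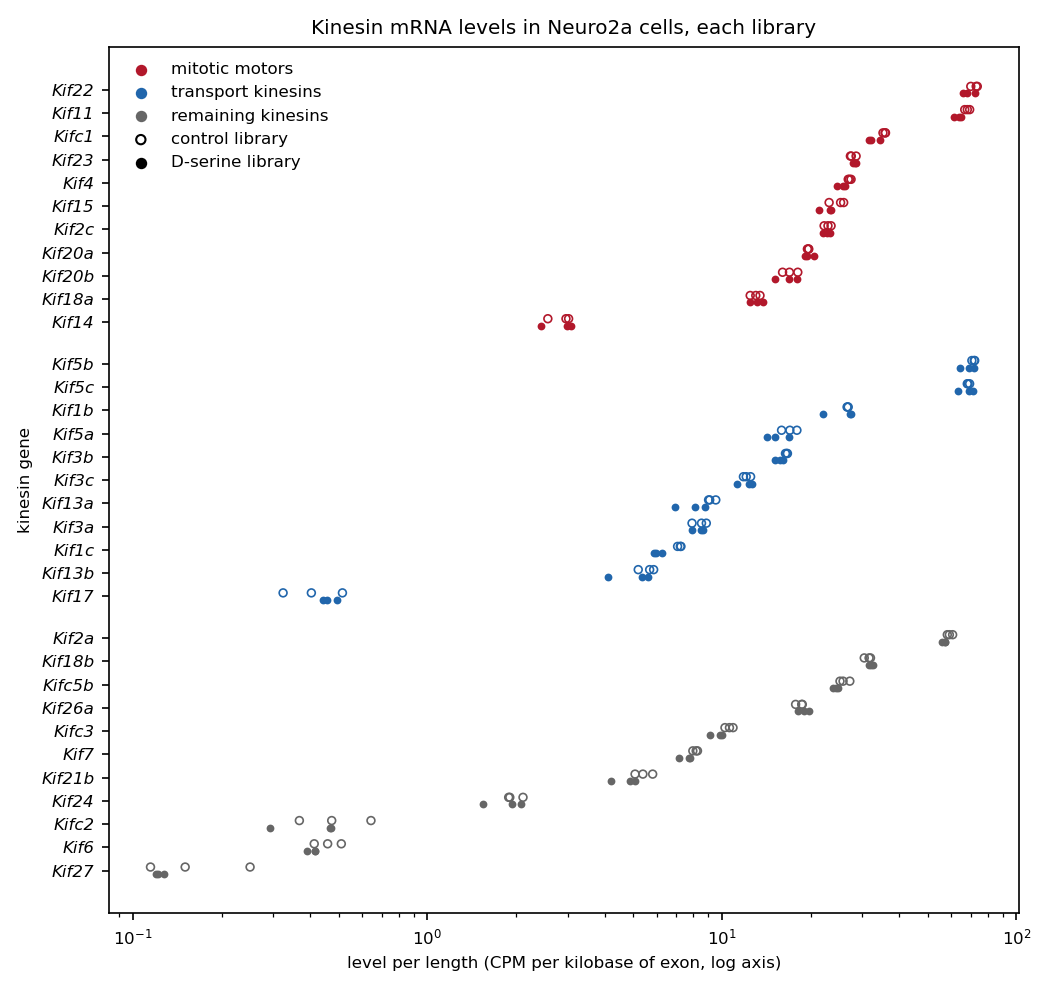
Level of each of the 33 tested kinesins in CPM per kilobase of exon on a log axis, with open circles for the 3 control libraries and filled circles for the 3 D-serine libraries. Mitotic motors (red), transport kinesins (blue) and the remaining kinesins (grey) each span from below 3 to above 50 CPM per kilobase.

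Some kinesins known for neuronal work were almost absent. Kif1a, which carries synaptic vesicle precursors in neurons, had 2 counts in all 6 libraries together, both in D-serine replicate 1. Kif21a, a relative of Kif21b at microtubule tips, was at 0 in every library, as were Kif2b and Kif12. A count of 0 in the shallowest library allows up to 0.0930 CPM (3 counts), and this covers counting error only. Kif19a had 2 counts in all, Kif16b 18, Kif26b 44 and Kif9 57, and these 8 genes were not tested. The paralogues Kif1b (26.7 ± 0.11 CPM per kilobase in control) and Kif21b (5.43 ± 0.38) were present. Kif5a, the third and neuron-enriched heavy chain of conventional kinesin, was present as well, at 17.0 ± 1.02.

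The question of the contrast was whether transcripts of the motors differ when D-serine is in the medium. Of the 33 tested kinesins, only Kif1c passed the threshold, and it fell. No mitotic motor passed. In edgeR's quasi-likelihood test with Benjamini-Hochberg adjustment over 13366 genes, 9.74% of all tested genes had an adjusted p under 0.05. As shares of all tested genes, 4.9% passed as lower and 4.84% as higher. The kinesin count of 1 of 33 is thus below the background share. At an unadjusted p under 0.05 there were 3 mitotic motors and 4 other kinesins, all 7 lower, against 28.2% of all tested genes. Because RNA of whole cultures was measured, fewer cells that express a gene and less RNA per cell cannot be told apart.

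Kif1c, a fast transporter of vesicles and of adhesion proteins, had 49.1, 48.9 and 47.8 CPM in control replicates 1 to 3 and 39.6, 42.3 and 40.4 CPM in D-serine replicates 1 to 3. All 3 D-serine libraries were below all 3 control libraries, by more than the spread within either group. The log2 fold change was -0.25 (SE 0.053, 95% interval -0.37 to -0.14, edgeR adjusted p = 0.0150), a ratio of 0.840. The call was lost without control replicate 1 (adjusted p = 0.0670), control replicate 2 (0.0717) or D-serine replicate 3 (0.0604), with log2 fold changes of -0.24, -0.25 and -0.25. It held in 12 of 16 alternatives. Kif1c shares 7 exonic bases with Mir6925 on the same strand.

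**Figure D2:**
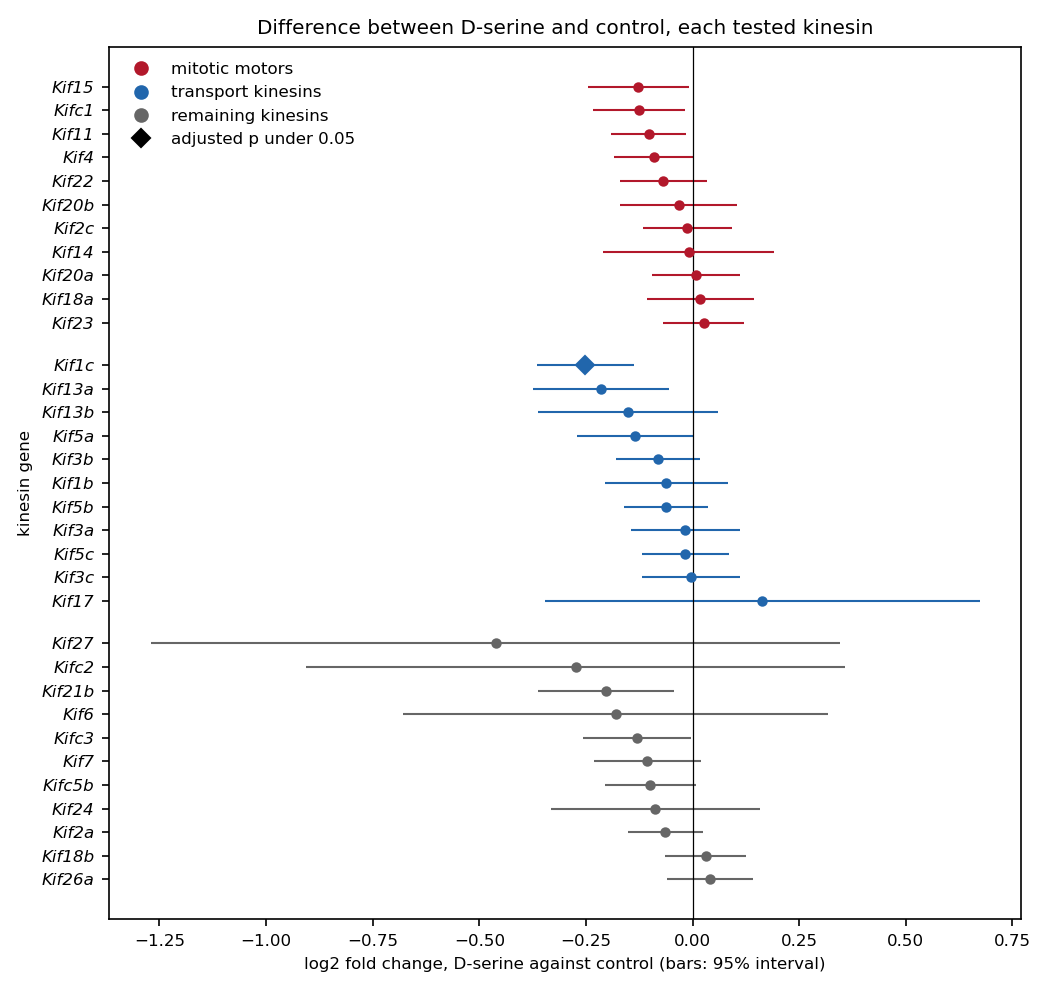
Log2 fold change of D-serine against control for the 33 tested kinesins, with 95% intervals from the edgeR fit and a diamond for an adjusted p under 0.05. Kif1c at -0.25 is the only diamond, the mitotic motors lie between -0.13 and 0.026, and the widest intervals belong to Kif27, Kifc2, Kif17 and Kif6, whose mean is under 2 CPM in each group.

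The promoters of the mitotic motors share a feature that the choice of genes did not use. Promoters of late cell cycle genes often carry a cell cycle genes homology region (CHR), whose core TTTGAA is bound by the DREAM and MuvB complexes, near a CCAAT box, which is bound by NF-Y. RefSeq promoter windows on GRCm38.p6, from 250 bases before to 50 after the annotated start, were found for 33 kinesins, 10 of them mitotic. Both motifs were searched on both strands, and no match of one overlapped a match of the other in these windows. TTTGAA occurred in 9 of 10 mitotic motors and in 5 of 23 other kinesins, against 17.9% of all 32851 windows and 20.2% of all genes with a window. Both TTTGAA and CCAAT occurred in 6 of 10 and 4 of 23, against 6.95% of all windows and 7.97% of all genes with a window. The 5 others with TTTGAA were Kif18b, Kifc5b, Kif1a, Kif26b and Kif27. Of these, Kif18b acts on mitotic microtubules although the rule sets it among the others, and Kifc5b is a close copy of Kifc1. Kif1a and Kif26b were too low to be tested, and Kif27 was among the lowest that were. A match is a description of the letters and does not show binding. Of the 10 mitotic motors with a window, only Kif18a had neither motif.

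The match nearest the start is shown for the 9 mitotic motors with 12 bases on each side, because TTTGAA occurs in 9 of 10 of their windows. Each is written 5′ to 3′ on the strand of its gene, with the core in capitals. TTCAAA is the core on the opposite strand.
Kif22 (chr7:127042420-127042449, minus): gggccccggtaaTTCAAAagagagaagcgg
Kif15 (chr9:122951050-122951079, plus): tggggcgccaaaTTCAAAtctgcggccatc
Kif11 (chr19:37376351-37376380, plus): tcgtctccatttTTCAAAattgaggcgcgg
Kifc1 (chr17:33890615-33890644, minus): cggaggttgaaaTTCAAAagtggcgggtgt
Kif23 (chr9:61946780-61946809, minus): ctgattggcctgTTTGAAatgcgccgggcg
Kif20b (chr19:34922353-34922382, plus): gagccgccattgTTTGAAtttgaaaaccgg
Kif4 (chrX:100626072-100626101, plus): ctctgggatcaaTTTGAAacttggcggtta
Kif2c (chr4:117178858-117178887, minus): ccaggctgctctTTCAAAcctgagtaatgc
Kif14 (chr1:136467608-136467637, plus): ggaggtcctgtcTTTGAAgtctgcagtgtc
The first 7 of these cores begin within 20 bases of the start, and those of Kif2c and Kif14 begin 103 and 228 bases before it. Among the other kinesins, the cores of Kif18b and Kif26b begin within 20 bases of the start as well. The nearest core begins at base 30 after the start in Kifc5b, and 44 and 73 bases before it in Kif1a and Kif27. For contrast, the 100 bases before the start are shown for Kif11 and Kif22, whose levels per length were the highest among mitotic motors, and for Kif1c, the gene that fell. Capitals mark both motifs (ATTGG is CCAAT on the opposite strand), and the Kif1c window holds neither.
Kif11 (chr19:37376282-37376381, plus): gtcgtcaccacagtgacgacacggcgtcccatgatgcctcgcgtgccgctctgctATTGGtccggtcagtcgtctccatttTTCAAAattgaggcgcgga
Kif22 (chr7:127042421-127042520, minus): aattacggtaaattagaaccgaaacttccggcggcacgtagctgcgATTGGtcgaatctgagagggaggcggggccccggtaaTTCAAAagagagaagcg
Kif1c (chr11:70700448-70700547, plus): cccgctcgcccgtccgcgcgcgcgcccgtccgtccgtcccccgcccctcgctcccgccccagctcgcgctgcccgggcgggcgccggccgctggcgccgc

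**Figure D3:**
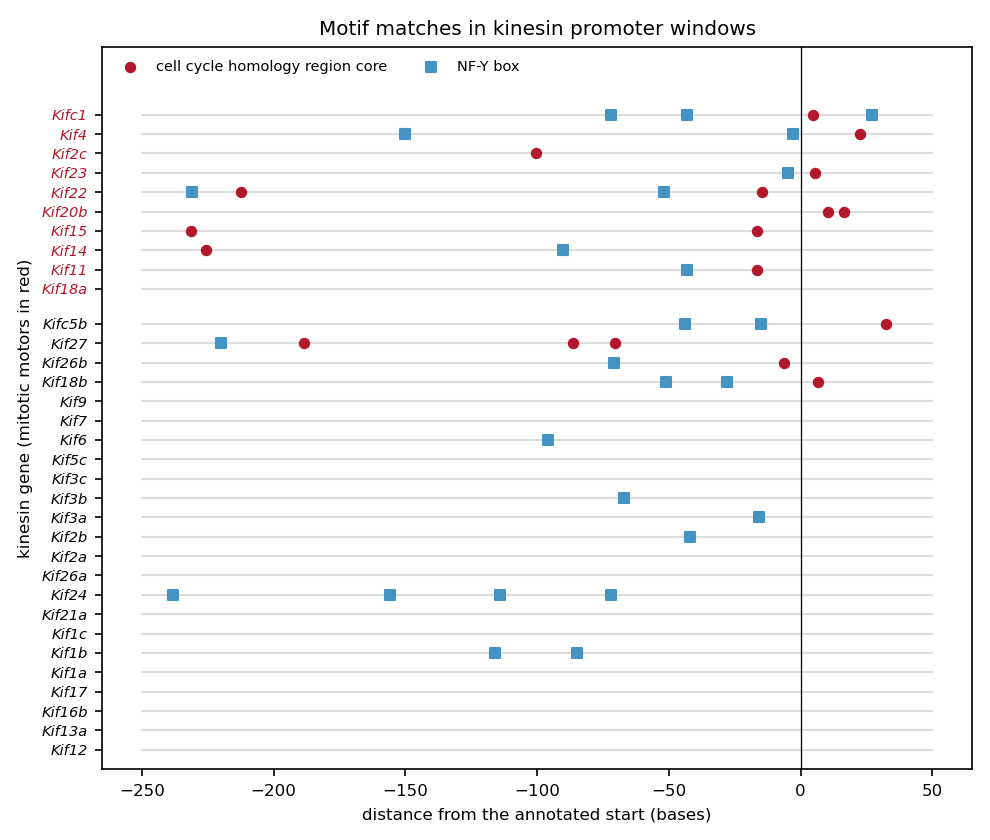
Position of the CHR core (red circles) and of the CCAAT box bound by NF-Y (blue squares), in bases from the annotated start, in the first listed promoter window of each of 33 kinesins, with mitotic motors at the top. Red circles are present in 9 of 10 mitotic rows.

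The mitotic motors were described in the order of their work. Among spindle builders, Kif11 had 328, 334 and 322 CPM in control and 297, 313 and 307 CPM under D-serine. The groups did not overlap, but the difference missed the threshold (log2 fold change -0.10, SE 0.041, edgeR adjusted p = 0.122). Kif15, which can keep the spindle bipolar beside Kif11, had a log2 fold change of -0.13 (SE 0.055, edgeR adjusted p = 0.148). Its groups overlapped, since control replicate 3 (111 CPM) lay below D-serine replicates 2 (112 CPM) and 3 (113 CPM).

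Kifc1, the minus-end motor that focuses spindle poles, had 83.4, 81.8 and 83.1 CPM in control and 80.2, 74.2 and 73.1 CPM under D-serine. The groups did not overlap, and D-serine replicate 1 lay closest to the controls (log2 fold change -0.13, SE 0.050, edgeR adjusted p = 0.121). Kifc1 passed without D-serine replicate 1 (-0.17, edgeR adjusted p = 0.0197). Its counts are uncertain, because 25.4% of the 75-base windows of its GENCODE transcripts also occur in Kifc5b, a close copy. Kifc1 and Kifc5b together had 151, 148 and 154 CPM in control and 145, 138 and 136 CPM under D-serine (exact two-sided permutation p = 0.1, the smallest possible).

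The chromokinesins Kif22 and Kif4 move and compact chromosome arms. Kif22 had 151, 144 and 152 CPM in control and 150, 141 and 136 CPM under D-serine, so the groups overlapped (log2 fold change -0.07, SE 0.047, edgeR adjusted p = 0.372). Kif4 had 129, 128 and 126 CPM in control and 116, 121 and 123 CPM under D-serine. Its groups did not overlap, and its log2 fold change of -0.09 (SE 0.043, edgeR adjusted p = 0.193) missed the threshold. Of the transcript windows of Kif4, 13.8% also occur in Pdzd11.

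The depolymerase Kif2c and the plus-end motor Kif18a act on chromosome alignment, and neither moved by more than its error. Kif2c had 70.5 ± 1.91 CPM in control and 69.9 ± 1.81 CPM under D-serine, and Kif18a 43.7 ± 1.68 and 44.3 ± 2.26 CPM (SD, n = 3 each). Among motors of cytokinesis, Kif23, the motor subunit of centralspindlin, had 95.1 ± 2.28 and 96.9 ± 1.12 CPM. Kif20a had 76.6 ± 0.42 and 77.1 ± 2.96 CPM, Kif20b 94.8 ± 5.66 and 92.6 ± 7.76 CPM, and Kif14 23.7 ± 2.04 and 23.6 ± 2.89 CPM. Kif20a shares 1115 exonic bases with Cdc23 and 229 with Brd8 on the other strand, which leaves its counts uncertain.

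For all 11 mitotic motors the 95% interval of the fold lay between 0.8 and 1.2, so larger differences are outside the intervals of these libraries. The intervals reached from 0.844 at the lower end (Kif15) to 1.14 at the upper end (Kif14). The median log2 fold change of the mitotic motors was -0.033, beside 0.0053 over all tested genes, with 8 below 0 and 3 above. With library totals as the scaling, the median was -0.0039 beside 0.035 over all tested genes, with 6 below 0 and 5 above. The sign depended on the setting in 5 of the 11. Among genes below 0, it turned in 7 of 16 alternatives for Kif14 and in 4 each for Kif2c and Kif20b. Among the 3 above 0, it turned in 4 for Kif18a and in 3 for Kif20a, while Kif23 was above 0 in all 16.

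Among the transport kinesins, the conventional heavy chains Kif5b and Kif5c were the most abundant. Kif5b had 425, 435 and 433 CPM in control and 388, 417 and 434 CPM under D-serine. D-serine replicate 1 was the lowest of the 6 libraries and replicate 3 lay within the control range (log2 fold change -0.06, SE 0.046, edgeR adjusted p = 0.406). Kif5c, at 466, 469 and 474 CPM in control and 433, 488 and 471 CPM under D-serine, had its lowest value in D-serine replicate 1 as well. Kif5a had 126, 119 and 112 CPM in control and 99.99, 119 and 106 CPM under D-serine (log2 fold change -0.13, edgeR adjusted p = 0.186).

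The subunits of heterotrimeric kinesin, which works in cilia and axons, differed little. Kif3a (45.9 ± 2.58 and 45.4 ± 1.93 CPM, SD, n = 3 each) and Kif3c (83.2 ± 2.35 and 82.9 ± 4.91 CPM) overlapped between groups. Kif3b, the partner of Kif3a, had 93.3 ± 0.72 and 88.2 ± 2.72 CPM without overlap, but missed the threshold (edgeR adjusted p = 0.264). Kif3c shares 2612 exonic bases with 1110002L01Rik on the opposite strand. Kif17, a motor of dendrites and cilia, had 1.62 ± 0.38 and 1.82 ± 0.10 CPM, with overlap.

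The relatives of Kif1c carry vesicles and mitochondria. Kif1b, with the longest exons of all kinesins (15024 bases), had 402, 403 and 400 CPM in control and 332, 410 and 412 CPM under D-serine. D-serine replicate 1 was thus far below and the other 2 D-serine libraries above every control library. Its log2 fold change of -0.06 (SE 0.067, edgeR adjusted p = 0.585) became 0.034 without D-serine replicate 1. Kif13a, a motor of endosomes, had 65.4, 62.4 and 61.8 CPM in control and 47.4, 60.4 and 55.6 CPM under D-serine. Its groups did not overlap and its log2 fold change was -0.22 (SE 0.074), which missed the threshold in edgeR (adjusted p = 0.0798) and passed in DESeq2 (adjusted p = 0.0439). Kif13b had 31.3 ± 1.93 and 28.1 ± 4.45 CPM with overlap.

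**Figure D4:**
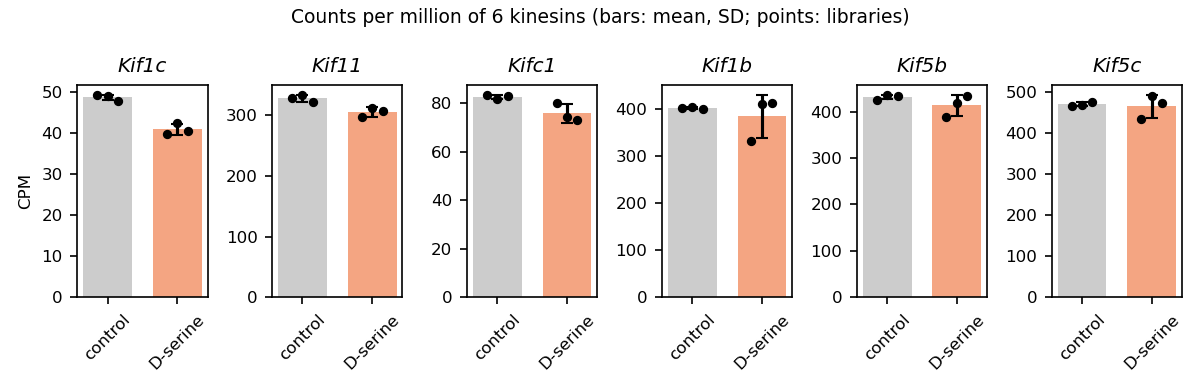
CPM of Kif1c, Kif11, Kifc1, Kif1b, Kif5b and Kif5c in control and D-serine libraries, with bars for the mean of 3, whiskers for the SD and points for replicates 1 to 3 from left to right. In Kif1c, Kif11 and Kifc1 the groups are apart, while in Kif1b, Kif5b and Kif5c the first D-serine library stands below the other 2.

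The remaining kinesins comprise depolymerases, ciliary and non-motile members and minus-end motors. Kif2a had 250 ± 5.26 CPM in control and 239 ± 3.88 CPM under D-serine (SD, n = 3 each), without overlap and with a log2 fold change of -0.06 (edgeR adjusted p = 0.328). Kif18b, which controls the length of mitotic microtubules, had 104 ± 2.66 and 107 ± 1.75 CPM, with overlap. Kif26a, a non-motile kinesin of neuronal development, had 127 ± 3.66 and 131 ± 5.69 CPM, with overlap. Kif21b, which limits microtubule growth in neurons, had 49.5 ± 3.42 and 43.0 ± 4.15 CPM, with a log2 fold change of -0.20 that missed the threshold (edgeR adjusted p = 0.0955). Kif7, a regulator of hedgehog signalling at the cilium tip, and Kifc3, a minus-end motor of cell junctions, were without overlap, at log2 fold changes of -0.11 and -0.13 (edgeR adjusted p = 0.254 and 0.164). Kif24, a depolymerase of centrioles, had 11.02 ± 0.70 and 10.4 ± 1.58 CPM. Kif6, Kif27 and Kifc2 had at most 2.02 CPM in a library, and their intervals were wide, from 0.414 to 1.27 times the control level for Kif27.

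The other 22 tested kinesins together had a median log2 fold change of -0.093, with 19 below 0 and 3 above, against 48.5% of all tested genes below 0. Over all 33 kinesins, 27 were below 0. This share depended on the scaling, since library totals left 22 of 33 below 0, with a median of -0.052 beside 0.035 over all tested genes. Groups did not overlap in 10 of 33 kinesins, all lower with D-serine (3 mitotic motors and 7 others), where 16.6% of all tested genes were lower without overlap and 16.2% higher. These 10 were Kif11, Kifc1, Kif4, Kif1c, Kif13a, Kif3b, Kif2a, Kifc5b, Kifc3 and Kif7.

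Kinesin transcripts are long, and 1 library moved with length. The median exon length was 3905 bases in mitotic motors and 5600.5 bases in the other tested kinesins, beside 2834.5 bases in all tested genes. D-serine replicate 1 was the lowest of the 6 libraries in 6 of 11 mitotic motors and 14 of 22 others, where 26.2% of all tested genes had their lowest value there. Over the 29 kinesins with at least 5 CPM, its log2 ratio to the control mean had a median of -0.23 in the 15 genes over 5000 bases and -0.054 in the 14 shorter ones. In D-serine replicate 2 these medians were 0.0077 and -0.064, and in D-serine replicate 3 they were -0.014 and -0.076. Across these genes, which share their libraries, Spearman's rho between the ratio and length was -0.63 in D-serine replicate 1, 0.22 in replicate 2 and 0.16 in replicate 3.

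**Figure D5:**
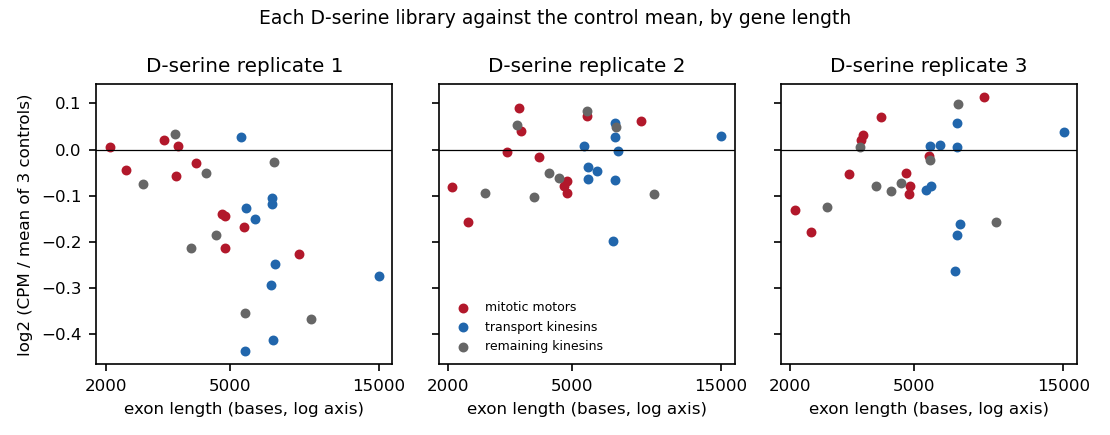
Log2 ratio of each D-serine library to the mean of 3 control libraries against exon length (log axis), for the 29 tested kinesins with at least 5 CPM. In D-serine replicate 1 the points fall with length, to medians of -0.23 over 5000 bases and -0.054 below, while in replicates 2 and 3 they do not (Spearman's rho 0.22 and 0.16).

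The summed level per length of the 13 transport kinesins was 244, 243 and 243 CPM per kilobase in control and 216, 243 and 240 CPM per kilobase with D-serine, so the low D-serine value came from replicate 1. That of the mitotic motors was 335, 329 and 329 in control and 315, 319 and 315 with D-serine, where all 3 D-serine libraries were below the controls. With the length trend of each library removed, 4 kinesins passed in edgeR, namely Kifc1 (log2 fold change -0.17, adjusted p = 0.0152), Kif1c (-0.19, adjusted p = 0.0187), Kif22 (-0.12, adjusted p = 0.0446) and Kif13a (-0.15, adjusted p = 0.0453). All 4 were lower, where 10.6% of all tested genes passed as lower in that fit and 15.8% passed in either direction. In that fit Kif1b, Kif5c and Kif3c were above 0, at 0.091, 0.047 and 0.059, and none of them passed. Over the 11 tested transport kinesins 6 were then below 0 and 5 above, against 10 and 1 before.

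Partners of the mitotic motors were taken from a list of 38 genes. Of these 38 spindle and cytokinesis genes, all tested, 1 passed in edgeR and it was higher, beside the 9.74% of all tested genes that passed and the 4.84% that passed as higher. The median log2 fold change was -0.062, with 28 below 0 and 10 above. Groups did not overlap in 13 that were lower and 5 that were higher with D-serine, beside the 16.6% and 16.2% of all tested genes. Ccnb2, a B-type cyclin, rose from 18.8, 19.2 and 17.7 CPM to 24.2, 24.9 and 22.1 CPM. Its log2 fold change was 0.36 (SE 0.073, edgeR adjusted p = 0.0142). Ccnb2 lost its call without any 1 of the 3 control libraries, with an adjusted p of up to 0.0596. The more abundant B-type cyclin Ccnb1 had 337, 340 and 353 CPM in control and 347, 351 and 357 CPM under D-serine. The groups of Ccnb1 overlapped (log2 fold change 0.035, SE 0.040, edgeR adjusted p = 0.603). Cenpe, a kinesin of kinetochores that the name rule leaves out, had 120, 112 and 109 CPM in control and 92.2, 107 and 109 CPM under D-serine. Its log2 fold change of -0.15 missed the threshold (SE 0.063, edgeR adjusted p = 0.141), and D-serine replicate 1 was again the lowest. With the length trend removed, 11 of the 38 passed, 10 of them lower, where 15.8% of all tested genes passed in that fit and 10.6% passed as lower.

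Of 33 cargo adaptors and light chains, 31 were tested and 5 passed in edgeR, 4 lower and 1 higher, beside the 9.74% of all tested genes. Trak1, which ties mitochondria to conventional kinesin, fell from 43.2, 43.9 and 43.1 CPM to 33.9, 36.3 and 35.3 CPM (log2 fold change -0.31, SE 0.054, edgeR adjusted p = 0.0097). It kept its call in 15 of 16 alternatives, the exception being the fit without control replicate 2 (adjusted p = 0.0579). Ccdc64, an adaptor of dynein and kinesin on secretory vesicles, fell from 68.4 ± 2.14 to 56.3 ± 2.32 CPM (SD, n = 3 each), with a log2 fold change of -0.28 (edgeR adjusted p = 0.0111). Plekhm2, which links lysosomes to conventional kinesin, fell by 0.18 on the log2 scale (edgeR adjusted p = 0.0338), and Clstn1, a cargo receptor for the light chains, fell by 0.16 (edgeR adjusted p = 0.0386). The light chain Klc1 rose from 95.1 ± 1.45 to 107 ± 1.54 CPM (SD, n = 3 each), with a log2 fold change of 0.17 (SE 0.043, edgeR adjusted p = 0.0279). Kifap3, the third subunit of heterotrimeric kinesin, had 62.2 ± 0.75 and 63.1 ± 2.27 CPM, with overlap. Without control replicate 2 none of the 5 passed, and without control replicate 1 or D-serine replicate 3 only Trak1 did. Without control replicate 3 only Ccdc64 and Trak1 passed. Plekhm2 and Clstn1 kept their calls in 9 of 16 alternatives each, Klc1 in 11 and Ccdc64 in 13. Neither Plekhm2 nor Clstn1 passed under upper quartile scaling, with library totals or with replicate number as a block.

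Of 29 genes of dynein and dynactin, which move cargo the other way, 27 were tested and 2 passed in edgeR, 1 lower and 1 higher, which is near the 9.74% of all tested genes. Dctn2, a dynactin subunit, fell from 173, 190 and 187 CPM to 164, 156 and 158 CPM (log2 fold change -0.20, SE 0.047, edgeR adjusted p = 0.0222). Dynlt3, a dynein light chain, rose from 61.8, 65.4 and 65.9 CPM to 75.9, 73.8 and 72.9 CPM (log2 fold change 0.20, SE 0.049, edgeR adjusted p = 0.0241). The heavy chain Dync1h1, with 14398 exonic bases, had 950, 919 and 884 CPM in control and 615, 851 and 838 CPM under D-serine (log2 fold change -0.26, SE 0.091, edgeR adjusted p = 0.0889). As in Kif1b, D-serine replicate 1 stood far below the rest. No gene of this list passed without control replicate 2, control replicate 3 or D-serine replicate 3.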

How the data were processed

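Raw gene counts of the 6 libraries and exon lengths stand in 1 table that the authors deposited, in featureCounts format per the file headers. Trim Galore, HISAT2, featureCounts and DESeq2 are named in the submitters' processing notes, with GRCm38 and mm10. Only 383 of 23175 genes matched by symbol share a start or end with RefSeq GRCm38.p6, so deposited coordinates are not printed. How strand and multiply mapped reads were treated is not given in the sources used here. Counts were tested with edgeR 4.0.16 in R 4.3.3 (filterByExpr, TMM, quasi-likelihood F test, no covariate, adjusted p under 0.05, two-sided). The standard error is the fold change divided by the square root of F. Alternatives used DESeq2 1.42.0, limma-voom (limma 3.58.1), other scalings and filters, replicate number as a block, offsets that remove each library's spline on log2 length (5 degrees of freedom), and leaving out each library. The steps were tested on simulated data.

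The members and gene lists were chosen with earlier results of these data known. Named are the 11 mitotic motors, other kinesins that passed or were among the 8 highest per length, up to 6 passing genes per partner list, and Cenpe, Kifap3, Klc1 and Dync1h1. Other kinesins were named to account for every member, and Ccnb1 was named to stand beside Ccnb2. The common biological coefficient of variation was 5.77%, and precision is limited by 3 libraries per group.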

Additional observations from a re-analysis of the deposited data

How the results depend on the processing

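Of 16 alternatives, none but the length trend and the omission of D-serine replicate 1 called a mitotic motor. Removal of the length trend gave 2 mitotic motors, 2 other kinesins, 11 spindle partners and 4 dynein genes. DESeq2 gave 2 other kinesins, 4 spindle partners and 4 dynein genes, and DESeq2 size factors 2 spindle partners. No filter on low counts gave 3, 6 and 5 for these lists. Cargo adaptors numbered 3 under upper quartile scaling and 3 with library totals, where the median of the mitotic motors was -0.0037 and -0.0039. The cause was not tested. Leaving out 1 library gave 0 to 1 mitotic motors, 0 to 4 other kinesins, 0 to 5 spindle partners, 0 to 6 cargo adaptors and 0 to 5 dynein genes, and medians from -0.079 to -0.030 for mitotic motors and from -0.12 to -0.063 for other kinesins.

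Deviations from the group means were not visibly shared by same-numbered libraries, with correlations of -0.069, 0.020 and -0.019. For libraries of different numbers the correlations ran from -0.076 to 0.088. These values cannot show whether the libraries were paired by design. With replicate number as a block, 0 other kinesins, 2 cargo adaptors and 0 dynein genes passed, and Kif1c had an adjusted p of 0.0519. With the block and the length trend removed, 1 mitotic motor and 8 spindle partners passed.

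Signs of genes with small fold changes were not stable. With the length trend removed, the log2 fold change was 0.076 in Kif14, -0.00040 in Kif20a, 0.0044 in Kif20b, -0.0068 in Kif18a, 0.047 in Kif5c and 0.091 in Kif1b. With the block as well it was 0.078, -0.00096, 0.0045, -0.0065, 0.048 and 0.092. Upper quartile scaling and library totals gave 0.020 and 0.020 in Kif14, 0.018 and 0.017 in Kif2c, and 0.013 and 0.012 in Kif5c. Over the 6 fits that left out 1 library, the range was -0.079 to 0.089 in Kif14, -0.023 to 0.029 in Kif20a, -0.088 to 0.031 in Kif20b, -0.018 to 0.055 in Kif18a, -0.031 to 0.0078 in Kif2c, -0.055 to 0.031 in Kif5c and -0.11 to 0.034 in Kif1b. Of 496 combinations of a named gene and an alternative, 418 kept sign and call.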
